A study of Mus musculus with 2 samples.

Results

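The 10 genes described here are transcription factors that drive mesenchymal transition, 10 of the 32285 genes in the count matrices. They were chosen by name, as members of families with this known role, but with earlier results of these data known. They are the zinc finger repressors Snai1 and Snai2, the basic helix-loop-helix factors Twist1 and Twist2, the zinc finger homeobox repressors Zeb1 and Zeb2, the paired-related homeobox factor Prrx1, the forkhead factor Foxc2, and the Runt factors Runx1 and Runx2. They were measured by single cell RNA sequencing in GL261 cells, a mouse glioma line of C57BL/6 origin that the labels call an astrocytoma, grown either attached to plastic (adherent cells) or as free-floating aggregates (neurospheres). Both cultures shared a DMEM medium that held 10% serum (FBS) and 1% Penicillin-Streptomycin, were treated with trypsin at harvest, and were frozen in medium with 10% DMSO before library preparation. The neurospheres alone were also broken up by trituration through ever finer pipettes, a step that cannot be told apart from the culture. The adherent cells were taken at about 80% confluency. The medium of the neurospheres also held Epidermal Growth Factor and Fibroblast Growth Factor, each at 20 ng/ml, and B-27 at 1:50, and they were collected after 12 days. Each culture gave 1 library from the same line, so the culture, its additives and the library cannot be told apart, no test between the cultures was possible, and every 95% interval given here covers counting error only.

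In epithelial-to-mesenchymal transition, cells lose junctions and keratins and gain motility, vimentin and matrix proteins. Snail, Zeb and Twist proteins bind short E-box sequences, and Snail and Zeb proteins recruit corepressors to promoters of epithelial genes such as the one for E-cadherin. In glioma the same factors accompany the mesenchymal tumour state, although glial cells express little E-cadherin to begin with. Runx1 and Runx2 bind a Runt motif together with the partner protein Cbfb, and Twist proteins pair with E-proteins, a pairing that Id proteins block.

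Molecules were counted by unique molecular identifiers (UMIs), and levels are given as CPM, the UMIs of a gene per 1000000 UMIs on non-mitochondrial, non-ribosomal genes. After cells with few UMIs or genes were left out, 5051 adherent cells with 46290996 UMIs and 4276 neurosphere cells with 64943938 UMIs remained. The median cell held 8260 UMIs in the adherent and 13198.5 UMIs in the neurosphere library. Since neurosphere cells were sequenced more deeply, shares of cells were compared after each cell was thinned to 5000 UMIs, which kept 4464 adherent and 4196 neurosphere cells. The libraries share 12 cell barcodes, and the counts of factors over 2-fold higher and over 2-fold lower were the same without them.

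Twist1 and Snai1 were at higher levels in the neurosphere than in the adherent library, Runx1, Runx2 and Foxc2 were at lower levels, and Zeb1 and Prrx1 were at nearly equal levels. Of the 10 factors, 8 had at least 50 UMIs over both libraries. Of these 8, 2 were over 2-fold higher in neurosphere cells, where 21.7% of the 14654 genes with as many UMIs were, and 3 were over 2-fold lower, where 11.7% of those genes were. The median log2 ratio of neurosphere to adherent CPM over the 8 factors was 0.02, beside 0.32 over the 14654 genes. Shares of only 8 genes are coarse, and they were not tested against the background.

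Sequences near the starts of these genes are shown first for the Runt factors, because RUNX proteins bind the Runt motif and both genes carry it in pairs. Of the 10 genes, 7 had a promoter entry in the RefSeq table (GRCm38.p6), in 11 windows of 250 bases before to 50 bases after a start. The Runt motif was searched as ACCACA on both strands. It occurred in 16.8% of all 32851 promoter windows and at least 2 times in 1.81% of them. Among the 11 windows of the factors it occurred in 2, a distal start of Runx1 (beginning 28 and 36 bases after the start) and the start of Runx2 (80 bases before the start, and 23 and 31 bases after it). The pairs after the start are printed here 5′ to 3′ on the minus strand on which both genes lie, with the motif in capitals, for Runx1 at chr16:92826025-92826051 and for Runx2 at chr17:44814580-44814609.
Runx1: aaacaACCACAgaACCACAagttgggt
Runx2: aaacaACCACAgaACCACAagtgcggtgca
Over the first 27 bases the sequences were identical at 25 positions. A match is a description of the letters and says nothing about binding in these cells.

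The E-box was searched as CACCTG on both strands, which reads CAGGTG where it lies on the other strand. It was in 20.2% of all promoter windows and in 2 of the 11 windows of the factors, at Snai1 and at the distal start of Runx1. Among genes of the epithelial list (junction, keratin and epithelial regulator genes), 10 of the 12 with a promoter entry held it, beside 22.6% of 27025 genes. In the mesenchymal list (vimentin, matrix and motility genes) it was in 1 of 14 windows. Both lists were chosen with earlier results of these data known, so these shares are descriptions. The 250 bases before the start are shown for Snai1 (chr2:167537945-167538194, plus strand), itself an E-box binding factor, and for the epithelial genes that were over 2-fold higher in neurospheres. These are Epcam (chr17:87635729-87635978, plus strand), Cldn4 (chr5:134946935-134947184, minus strand), Krt8 (chr15:102004343-102004592, minus strand) and Krt18 (chr15:102027966-102028215, plus strand), with each E-box in capitals.
Snai1: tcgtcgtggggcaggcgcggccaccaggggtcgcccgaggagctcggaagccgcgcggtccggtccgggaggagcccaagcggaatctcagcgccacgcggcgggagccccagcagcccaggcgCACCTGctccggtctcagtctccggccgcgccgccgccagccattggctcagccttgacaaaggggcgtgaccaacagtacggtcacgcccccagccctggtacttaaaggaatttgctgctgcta
Epcam: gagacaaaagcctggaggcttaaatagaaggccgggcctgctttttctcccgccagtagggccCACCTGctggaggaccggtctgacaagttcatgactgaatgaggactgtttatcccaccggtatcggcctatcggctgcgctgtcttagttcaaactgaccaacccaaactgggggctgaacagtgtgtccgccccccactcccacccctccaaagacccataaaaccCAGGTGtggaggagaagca
Cldn4: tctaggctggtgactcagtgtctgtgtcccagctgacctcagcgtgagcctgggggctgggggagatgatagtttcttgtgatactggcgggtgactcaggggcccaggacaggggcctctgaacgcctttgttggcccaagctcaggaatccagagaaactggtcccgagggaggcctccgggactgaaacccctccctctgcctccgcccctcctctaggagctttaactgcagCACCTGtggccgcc
Krt8: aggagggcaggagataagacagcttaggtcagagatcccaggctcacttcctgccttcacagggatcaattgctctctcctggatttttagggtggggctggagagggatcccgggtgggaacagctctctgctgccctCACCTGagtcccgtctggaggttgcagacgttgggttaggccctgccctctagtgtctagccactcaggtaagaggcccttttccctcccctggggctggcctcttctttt
Krt18: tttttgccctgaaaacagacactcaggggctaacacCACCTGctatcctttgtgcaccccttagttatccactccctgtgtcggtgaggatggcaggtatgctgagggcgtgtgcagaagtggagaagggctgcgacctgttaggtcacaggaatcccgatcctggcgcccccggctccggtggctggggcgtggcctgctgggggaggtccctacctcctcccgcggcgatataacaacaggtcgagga
The motif in the Snai1 stretch begins 126 bases before the start. In Krt8 and Krt18, which encode the keratin pair of simple epithelia and lie next to each other on chromosome 15, it begins 111 and 214 bases before the start. Epcam, which encodes an epithelial adhesion molecule, holds 2 motifs, 187 and 19 bases before the start. Cldn4, which encodes a tight junction protein, holds 2 in its whole window, 14 bases before and 11 bases after the start.

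Snai1 and Snai2 are the founding repressors of E-cadherin. Snai1 (chr2:167538195-167542814, plus strand) gave 21 UMIs in adherent and 71 UMIs in neurosphere cells. These are 0.454 CPM (95% interval 0.281 to 0.693) and 1.09 CPM (0.854 to 1.38), a log2 ratio of 1.27 (0.55 to 2.05). Both levels rest on few molecules: after thinning, 0.246% of adherent and 0.50% of neurosphere cells had a Snai1 UMI. Snai2 (chr16:14705852-14709385, plus strand) had 0 UMIs in the adherent library, which allows a level of up to 0.0648 CPM at 3 counts, and 2 UMIs in neurosphere cells, under the limit of 3 counts. Snai2 was thus not detectable as a difference at this depth.

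Twist1 had the highest ratio of the 8 factors. It directs mesoderm and neural crest cells toward mesenchyme. Twist1 (chr12:33957671-33959829, plus strand) gave 923 UMIs in adherent and 3717 UMIs in neurosphere cells. Adherent cells held it at 19.9 CPM (18.7 to 21.3) and neurospheres at 57.2 CPM (55.4 to 59.1), 2.87-fold higher, a log2 ratio of 1.52 (1.42 to 1.63). The difference was spread over many cells: with each cell at 5000 UMIs, 9.23% of adherent cells (8.40 to 10.1) and 22.8% of neurosphere cells (21.5 to 24.1) had a Twist1 UMI. Before thinning the shares were 16.5% and 47.2%. Cells with at least 2 Twist1 UMIs made up 0.493% of thinned adherent and 4.05% of thinned neurosphere cells. Its paralog Twist2 (chr1:91801461-91848028, plus strand) went the other way at a far lower count. Twist2 had 10 UMIs (0.216 CPM, 0.104 to 0.397) in the adherent and 0 in the neurosphere library, where 3 counts would be 0.0462 CPM. With the 0 set to 3 counts it was 4.68-fold lower in neurospheres, a value that leaves out the counting error of the 10 UMIs.

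Zeb1 and Zeb2, which bind paired E-boxes and repress epithelial genes in partnership with CtBP proteins, were well measured in both cultures. Zeb1 gave 3169 and 4611 UMIs in adherent and neurosphere cells, at 68.5 CPM (66.1 to 70.9) and 71.0 CPM (69.0 to 73.1). Its log2 ratio was 0.05 (-0.01 to 0.12), which spans 0. Zeb2 (chr2:44983632-45117395, minus strand) gave 2027 and 3747 UMIs, at 43.8 CPM (41.9 to 45.7) and 57.7 CPM (55.9 to 59.6). Its log2 ratio of 0.40 (0.32 to 0.48) lies above 0 and close to the median of all genes. After thinning, 27.3% of adherent and 29.4% of neurosphere cells had a Zeb1 UMI, and 19.6% and 22.6% had a Zeb2 UMI. Unlike Twist1, neither factor differed by as much as 2-fold under any of the 10 alternatives for the members, and the sign of the Zeb1 ratio changed in 2 of them.

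Prrx1, a homeobox factor of limb and craniofacial mesenchyme, was at nearly the same level in the cultures when all cells were pooled. Prrx1 (chr1:163245119-163313710, minus strand) gave 2674 and 3734 UMIs in the adherent and neurosphere libraries, at 57.8 and 57.5 CPM. The log2 ratio was -0.01 (-0.08 to 0.07), and its sign changed in 4 of the 10 alternatives. A Prrx1 UMI was in 22.7% of thinned adherent and 23.0% of thinned neurosphere cells. Foxc2, a forkhead factor of vessels and mesenchyme (chr8:121116171-121118895, plus strand), gave 52 UMIs in adherent and 35 UMIs in neurosphere cells. Its levels were 1.12 CPM (0.839 to 1.47) and 0.539 CPM (0.375 to 0.750), a log2 ratio of -1.06 (-1.72 to -0.41). Foxc2 lay close to the 2-fold line, and its ratio stayed past 2-fold in 6 of the 10 alternatives.

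The Runt factors were both lower in neurospheres. Runx1 (chr16:92601466-92826149, minus strand), a regulator of blood stem cells, gave 673 UMIs in adherent and 274 UMIs in neurosphere cells. From 14.5 CPM (13.5 to 15.7) in the adherent culture the level was 4.22 CPM (3.73 to 4.75) in neurospheres, 3.45-fold lower, a log2 ratio of -1.78 (-1.99 to -1.58). Runx2 (chr17:44495987-44814797, minus strand), the regulator of bone formation, gave 470 and 297 UMIs, at 10.2 CPM (9.26 to 11.1) and 4.57 CPM (4.07 to 5.12), a log2 ratio of -1.15 (-1.37 to -0.94). The shares of cells went the same way: after thinning, 7.19% of adherent and 1.93% of neurosphere cells had a Runx1 UMI, and 4.48% and 2.22% had a Runx2 UMI. The Runx1 ratio stayed past 2-fold in each of the 10 alternatives and the Runx2 ratio in 9 of them.

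**Figure D1:**
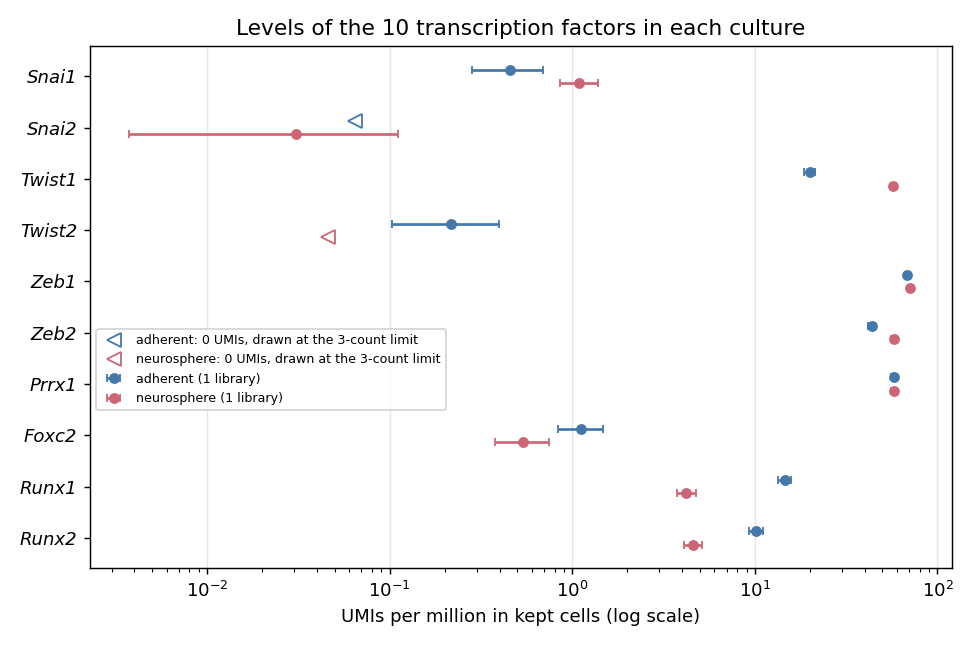
CPM (log axis) of each of the 10 factors in the adherent (blue) and neurosphere (red) library, with exact 95% Poisson intervals as bars; open triangles mark 0 UMIs, drawn at the level of 3 counts. Twist1 lies at 19.9 (adherent) and 57.2 (neurosphere), Runx1 at 14.5 and 4.22, and the points of Zeb1 and of Prrx1 nearly coincide.

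**Figure D2:**
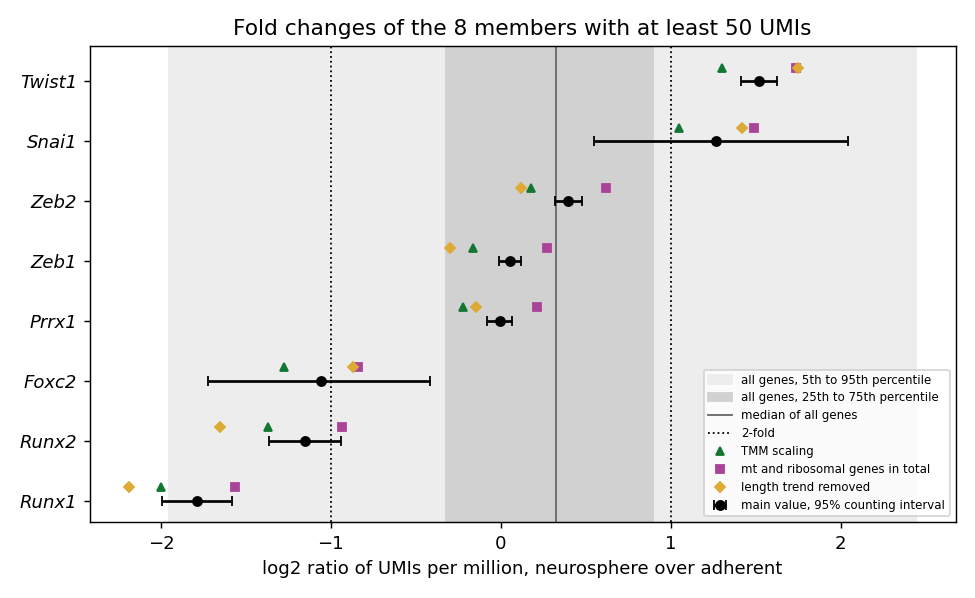
Log2 ratio of neurosphere to adherent CPM for the 8 factors with at least 50 UMIs (black, with 95% counting intervals) and under 3 alternative scalings (coloured), over the range of all genes (grey bands, 5th to 95th and 25th to 75th percentile). Twist1 and Snai1 lie right of the 2-fold line under each scaling, and Zeb1 and Prrx1 cross 0 between scalings.

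Antisense and overlapping genes are annotated at several of these loci, and the 3′ libraries keep the strand. On the opposite strand of Zeb2, Zeb2os gave 120 and 107 UMIs (2.59 and 1.65 CPM) in adherent and neurosphere cells. On the opposite strand of Runx2, Runx2os1 gave 33 and 18 UMIs, Runx2os2 gave 18 UMIs and 1 UMI, and Supt3 gave 1465 and 2494 UMIs. As levels, Supt3 was at 31.6 and 38.4 CPM. UMIs were counted per gene, so the isoforms of Runx1, Runx2 and Zeb2, which arise from several starts, were not resolved.

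At the level of single cells, most cells showed few of the factors at once. With each cell at 5000 UMIs, 62.4% of adherent cells (61.0 to 63.8) and 67.9% of neurosphere cells (66.4 to 69.3) had a UMI of at least 1 of the 10 factors. UMIs of at least 2 factors were in 23.0% and 27.2% of cells, and at least 3 in 5.04% and 6.96%. No cell had more than 5 of them in adherent or more than 4 in neurosphere cells. A cell without a UMI may still express the gene, since 5000 UMIs sample a small part of its RNA. No cell type known to lack these genes was in the cultures, so how many cells would show a UMI from free RNA alone was not measured.

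Before thinning, UMIs of Twist1, Zeb2 and Prrx1 were spread unevenly over neurosphere cells. The variance over the mean of UMIs per cell, which would be 1 for Poisson counts in cells of equal depth and level, was 1.03 in adherent and 2.01 in neurosphere cells for Twist1, 1.25 and 2.23 for Zeb2, and 1.58 and 2.28 for Prrx1. The highest count in a cell was 3 and 13 UMIs for Twist1, 7 and 20 UMIs for Zeb2, and 8 and 18 UMIs for Prrx1. At 5000 UMIs per cell the variance over the mean was 1.00 in adherent and 1.24 in neurosphere cells for Twist1, 1.07 and 1.48 for Zeb2, and 1.23 and 1.37 for Prrx1. For Zeb1 the neurosphere value was 1.72 before and 1.22 after thinning. This measure can also rise with the mean at equal relative spread. The mean of Twist1 was 0.0972 UMIs per thinned adherent cell and 0.282 per thinned neurosphere cell. Pairs of factors were found in the same thinned cell at 0.867 to 1.30 times the product of their shares in adherent cells (13 pairs) and 0.925 to 1.33 times in neurosphere cells (11 pairs). Their correlations over cells lay between -0.02 and 0.08, too weak in counts this sparse to count as a finding.

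**Figure D3:**
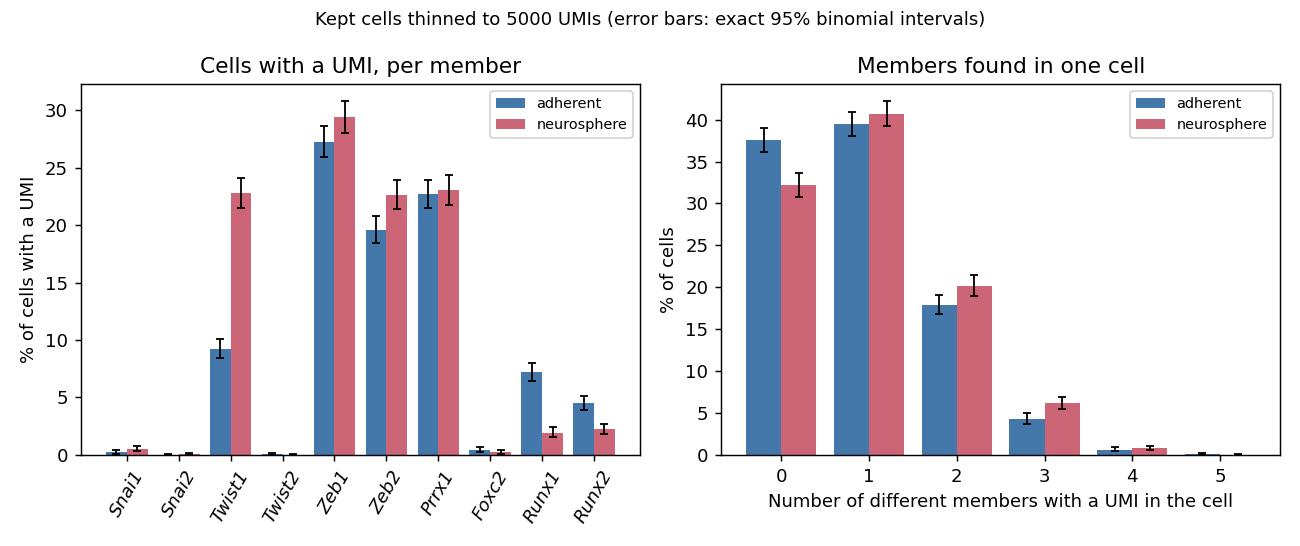
Left, the percentage of cells thinned to 5000 UMIs with at least 1 UMI of each factor; right, the percentage of cells by the number of different factors found, for adherent (blue) and neurosphere (red) cells with exact 95% binomial intervals. The Twist1 bars stand at 9.23% (adherent) and 22.8% (neurosphere), and most cells had 0 or 1 factor.

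The level of a factor in a culture can hide differences between its cells, so each culture was divided by whether a cell held a UMI of a marker gene. In neurospheres the division by Krt8, the keratin gene whose promoter is printed above, gave a counting interval off 0 for 5 of the 7 factors with enough UMIs (Snai1, Twist1, Zeb2, Prrx1 and Runx1). All 5 intervals lay below 0, beside 21.5% of 13238 genes under the same minimum of UMIs. A Krt8 UMI was in 2742 of 4196 thinned neurosphere cells and in 74 of 4464 thinned adherent cells. Of the 2742 neurosphere cells, 416 had exactly 1 Krt8 UMI and lie at the edge of the division. In neurosphere cells with Krt8, Prrx1 was at 47.0 CPM (43.4 to 50.8), and in those without it at 89.3 CPM (82.5 to 96.4), a log2 ratio of -0.93 (-1.09 to -0.77). Zeb2 was at 50.8 CPM with and 78.4 CPM without Krt8, a log2 ratio of -0.63 (-0.79 to -0.46). Runx1 was at 2.92 CPM with and 6.46 CPM without Krt8, a log2 ratio of -1.15 (-1.79 to -0.51) from 40 and 47 UMIs. Snai1 had 8 UMIs with and 13 without Krt8, a log2 ratio of -1.62 (-3.09 to -0.24). Zeb1 hardly differed, at 75.2 and 79.5 CPM (log2 ratio -0.08, -0.23 to 0.07), and Twist1 was slightly lower with Krt8, at 53.2 and 62.2 CPM (log2 ratio -0.22, -0.39 to -0.05). These intervals treat UMIs as independent and are too narrow where UMIs are uneven between cells.

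Divided more finely by Krt8, a split added after the data were seen, 3 of the 7 factors were lower at each further class of Krt8 counts, beside 10.8% of all genes under the same minimum of UMIs. In neurosphere cells with 0, 1, 2 to 9, and 10 or more Krt8 UMIs, Prrx1 was at 89.3, 80.8, 51.3 and 35.8 CPM. Zeb2 was at 78.4, 74.5, 53.1 and 43.2 CPM in the same classes, and Runx1 at 6.46, 5.77, 4.15 and 1.54 CPM. Neighbouring classes were not all apart, since the intervals at 0 and 1 Krt8 UMI overlapped for Prrx1 (82.5 to 96.4 and 69.0 to 93.9 CPM), Zeb2 (72.1 to 85.1 and 63.2 to 87.2 CPM) and Runx1 (4.75 to 8.60 and 2.98 to 10.1 CPM, the latter from 12 UMIs). Runx2 (5.64, 6.73, 3.37 and 3.86 CPM) had no such order, and Snai1 had too few UMIs to read one, with 13, 1, 3 and 4. Twist1 (62.2, 46.6, 55.7 and 53.8 CPM) and Zeb1 (79.5, 82.7, 81.3 and 70.1 CPM) had none either. The epithelial gene Epcam went the opposite way, at 67.4, 77.9, 110.1 and 146.2 CPM, while Vim, the gene of the intermediate filament protein vimentin, was at 1629, 1651, 1638 and 1841 CPM. The classes held 1454, 416, 772 and 1554 cells. Their median cells had 12527, 13210.5, 14677 and 13576.5 UMIs before thinning, and medians of 4.05%, 3.93%, 3.85% and 3.95% mitochondrial UMIs.

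The neurosphere to adherent ratio of Prrx1 was also taken within the cells that lacked and those that held Krt8. Among cells without Krt8 the log2 ratio was 0.65 (0.51 to 0.79). Among cells with Krt8 it was -0.93 (-1.43 to -0.37), where the adherent side rests on 33 UMIs. All 33 lie in the 68 of the 74 adherent cells that had exactly 1 Krt8 UMI, so that this class sits almost wholly at the edge of the division, and whether a single Krt8 UMI marks expression or free RNA was not tested. Among cells with exactly 1 Krt8 UMI in both cultures, Prrx1 was at 80.8 CPM (69.0 to 93.9) in neurospheres and at 97.1 CPM (66.8 to 136.3) in adherent cells, and these intervals overlap. In adherent cells, Prrx1 was higher in the cells with Krt8 than in those without, by a log2 ratio of 0.65, from the same 33 UMIs in cells at that edge.

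Twist1, Snai1, Zeb2, Runx1, Runx2 and Foxc2 kept the direction of their differences in each class of cells that could be compared. Within the 19 classes of cells that could be compared between cultures, the log2 ratio of neurosphere to adherent level lay between 0.83 and 1.69 for Twist1 and between -2.47 and -0.84 for Runx1. The counting interval was off 0 in 18 of the 19 classes for Twist1 and in 17 for Runx1. It included 0 for Twist1 in cells with Spp1 (0.83, -0.23 to 1.80) and for Runx1 in cells with Cxcl10 (-0.84, -3.14 to 0.75) and with Spp1 (-1.46, -3.81 to 0.20), each of the last 2 from 3 neurosphere UMIs. The log2 ratio lay between -1.69 and -0.02 for Runx2 (interval off 0 in 15 of 18 classes) and between 0.09 and 0.81 for Zeb2 (in 14 of 19). For Snai1 the ratio lay between 0.50 and 1.84 (interval off 0 in 4 of 9) and for Foxc2 between -1.40 and -0.31 (in 0 of 10). The sign changed between classes for Zeb1 (-0.28 to 0.34) and Prrx1 (-0.93 to 0.65). These classes overlap, since the same cells are divided anew by each marker.

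The other markers each divided only some of the factors, and the log2 ratios named here had counting intervals that did not include 0. These ratios were picked from many divisions. In adherent cells, for example, Twist1 and Runx2 had 0 such intervals in 9 divisions each. The share of all genes with such intervals was taken for Krt8 only, and the intervals are too narrow where UMIs are uneven between cells. In neurospheres Runx2 was higher in cells with Col2a1, a cartilage collagen gene (log2 ratio 0.86, beside 0.25 for Prrx1, -0.24 for Twist1 and -0.27 for Zeb2), and in the 131 cells with Hes5, a Notch target (1.82, 0.71 to 2.76, from 10 UMIs), and lower in cells with the cell division gene Top2a (-0.67). In the same culture Twist1 (0.31) and Prrx1 (0.29) were higher in cells with Top2a. Zeb2 and Prrx1 were both higher by 0.39 in neurosphere cells with Sox10, a regulator of oligodendrocyte and neural crest cells, and Prrx1 was lower in those with Spp1, the osteopontin gene (-0.84). In adherent cells Runx1 was lower (-0.71) and Prrx1 higher (0.27) in cells with Col2a1, Runx1 was higher in cells with Spp1 (0.58), and Prrx1 (0.33) and Zeb2 (0.25) were higher in cells with the interferon-induced chemokine gene Cxcl10. Division of neurosphere cells by Epcam, added after the data were seen, gave lower levels in cells with it for Prrx1 (-0.36), Zeb2 (-0.32) and Zeb1 (-0.20). Foxc2 was lower in adherent cells with Sox10 (-2.20, -4.24 to -0.57, from 4 and 16 UMIs). Zeb1 was higher in neurosphere cells with Hes5 (0.64) and in adherent cells with Mki67, a proliferation gene (0.27). Division by Ly6a, a stem cell antigen gene, gave no interval off 0 in adherent cells, and neurospheres had too few cells with it.

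**Figure D4:**
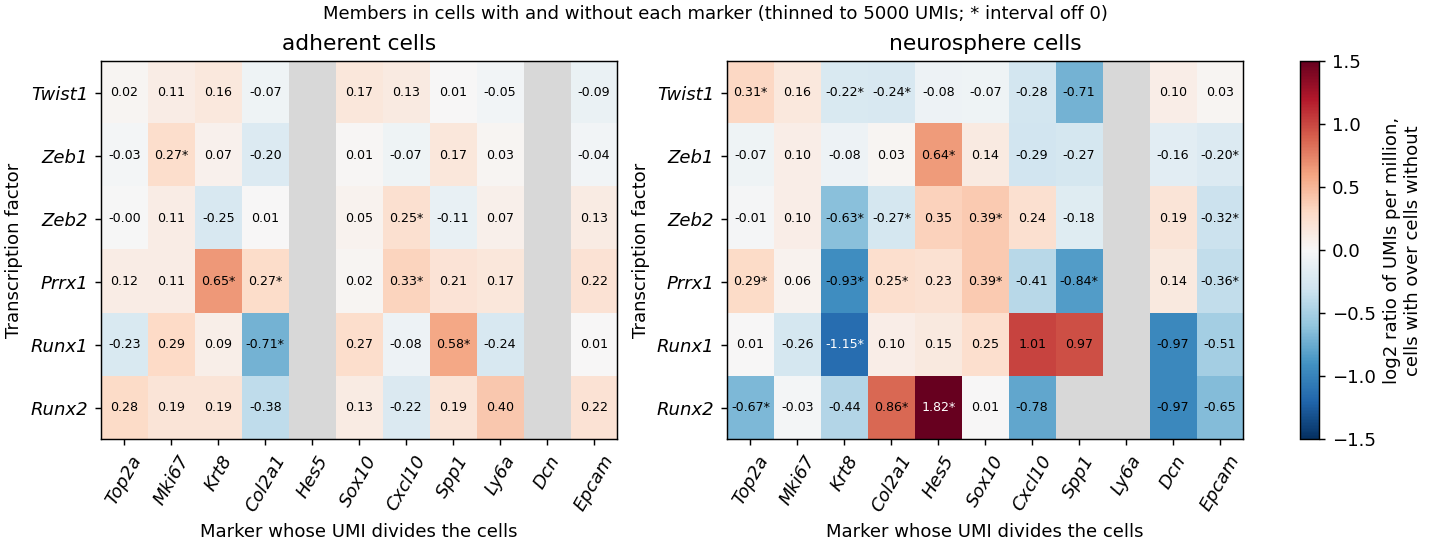
Log2 ratio of the level of 6 factors in cells with over cells without a UMI of each marker gene (columns), in adherent (left) and neurosphere (right) cells thinned to 5000 UMIs; an asterisk marks a 95% counting interval that does not include 0, colours end at 1.5 in either direction, and grey marks too few cells or UMIs. In neurospheres the Krt8 column reads -0.93 for Prrx1, -1.15 for Runx1 and -0.63 for Zeb2, and -0.08 for Zeb1.

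The genes on which these factors are known to act did not differ in 1 direction. Of the 18 genes of the epithelial list, 7 had at least 50 UMIs, 4 of them were over 2-fold higher in neurospheres and 0 were over 2-fold lower, beside 21.7% and 11.7% of all genes. Krt8 gave 182 and 196433 UMIs (log2 ratio 9.59, 9.38 to 9.81) and Krt18 gave 5 and 1692 UMIs (7.91, 6.69 to 9.54). Epcam and Cldn4, named here after their values were seen, gave 1000 and 7963 UMIs (2.50) and 0 and 104 UMIs. Cldn4 was 24.7-fold higher with the 0 set to 3 counts. Cdh1, the gene of E-cadherin and the classic target of Snail and Zeb repression, was near the limit of detection in both cultures, with 12 and 20 UMIs. Among the other genes of the list under 50 UMIs, Ocln (22 and 10 UMIs, -1.63), Esrp2 (25 and 12, -1.55) and Esrp1 (16 and 9, -1.32), which encode a tight junction protein and 2 epithelial splicing regulators, were lower in neurospheres with intervals below 0. Elf3 (-0.14) and Jup (0.18), an epithelial transcription factor gene and the plakoglobin gene, differed little.

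Of the 20 genes of the mesenchymal list, 15 had at least 50 UMIs, 3 were over 2-fold higher and 8 over 2-fold lower in neurospheres, beside 21.7% and 11.7% of all genes, and their median log2 ratio was -1.52, beside 0.32. Vim, with levels of 5583 and 1763 CPM in the adherent and neurosphere cultures, had a log2 ratio of -1.66, and Fn1, the fibronectin gene, one of -2.37. S100a4, a calcium-binding protein gene (-6.61), and Thbs1, the thrombospondin gene (-3.28), had the smallest ratios. The fibrillar collagen genes Col1a1 (7.04) and Col3a1 (5.52) had the largest, and Cdh2, the gene of N-cadherin, was at -0.27. The higher collagen and lower vimentin and fibronectin levels thus stood in the same neurosphere library as the higher Twist1 level.

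The partners of Twist1 divided by role. The E-protein genes Tcf12 (log2 ratio 1.82), Tcf4 (1.54) and Tcf3 (1.53) were each over 2-fold higher in neurospheres, as Twist1 was and as were 21.7% of all genes. The genes of the Id inhibitors Id3 (-2.60), Id1 (-1.69) and Id2 (-1.48) were each over 2-fold lower, as were 11.7% of all genes, and Id4 had 0 UMIs in both cultures. From adherent to neurosphere cells the Tcf12 level went from 240 to 845 CPM and the Id3 level from 992 to 164 CPM. After thinning, an Id3 UMI was in 85.8% of adherent and 28.7% of neurosphere cells.

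Among 6 genes of Runx cofactors, 4 were measured, and 1 was over 2-fold higher and 0 lower, beside 21.7% and 11.7% of all genes. The higher one was Cbfb, the gene of the shared partner of the Runt factors, 2.83-fold higher in neurospheres, with 752 and 2987 UMIs. Cbfb was therefore higher where Runx1 and Runx2 were lower. The corepressor genes Tle3, Tle1 and Tle4 were at 0.05, 0.21 and 0.77. Of 8 skeletal genes that Runx2 is known to regulate, 3 were measured and did not follow Runx2 together. Of these 3, 2 were over 2-fold higher and 1 over 2-fold lower, beside 21.7% and 11.7% of all genes. Spp1 was lower (-2.46) and Alpl, the alkaline phosphatase gene, was higher (1.49). Col10a1, the gene of a hypertrophic cartilage collagen, had 0 UMIs in the adherent and 451 in the neurosphere library, 107-fold higher with the 0 set to 3 counts. Among the genes of this list under 50 UMIs, Sp7 was lower, as Runx2 was (31 and 13 UMIs, -1.74, -2.80 to -0.77). Bglap (2 and 9 UMIs) and Ihh (2 and 8 UMIs) were higher, with intervals that included 0.

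All 9 corepressor genes of Snail and Zeb proteins were measured, 2 were over 2-fold higher in neurospheres and 0 lower, beside 21.7% and 11.7% of all genes, and their median was 0.30. The histone deacetylase gene Hdac2 was at 1.17 and Ctbp1, a partner of Zeb proteins, at 1.03. With TMM scaling, which lowers every log2 ratio alike, both drop below 2-fold. Then 0 of the 9 genes are over 2-fold higher, beside 16.1% of all genes. When mitochondrial and ribosomal UMIs stay in the total 4 are, beside 29.5%. Kdm1a, the gene of a histone demethylase that Snai1 recruits, was at -0.16, and Ctbp2 at 0.09. Of 7 genes that act on the turnover or activity of the Snai1 protein, 5 were over 2-fold higher and 0 lower, beside 21.7% and 11.7% of all genes, with a median of 1.24. These were the kinase genes Pak1 (1.48), Lats2 (1.31) and Gsk3b (1.24) and the ubiquitin ligase genes Fbxl14 (1.26) and Btrc (1.08), while Fbxo11 was at 0.69. With TMM scaling Btrc drops below 2-fold and 4 remain, beside 16.1% of all genes. Protein levels were not measured.

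Of 7 genes known as regulators of the mesenchymal glioma state, 1 was over 2-fold higher and 3 were over 2-fold lower in neurospheres, beside 21.7% and 11.7% of all genes, with a median of -0.80. Fosl1 (-1.87), Cebpd (-1.24) and Cebpb (-1.07) were the lower ones, Bhlhe40 (1.45) the higher one, and Stat3 was at 0.36. Cebpb is no longer past 2-fold when mitochondrial and ribosomal UMIs stay in the total, and with TMM scaling Wwtr1 also is. Of 10 close relatives of the factors only 3 were measured. The Snail relative Snai3 had 11 and 47 UMIs (1.61), Prrx2 was at 0.16, and Foxc1, the paralog of Foxc2, had 495 and 353 UMIs (-0.98). Runx3 had 8 UMIs and 1 UMI.

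**Figure D5:**
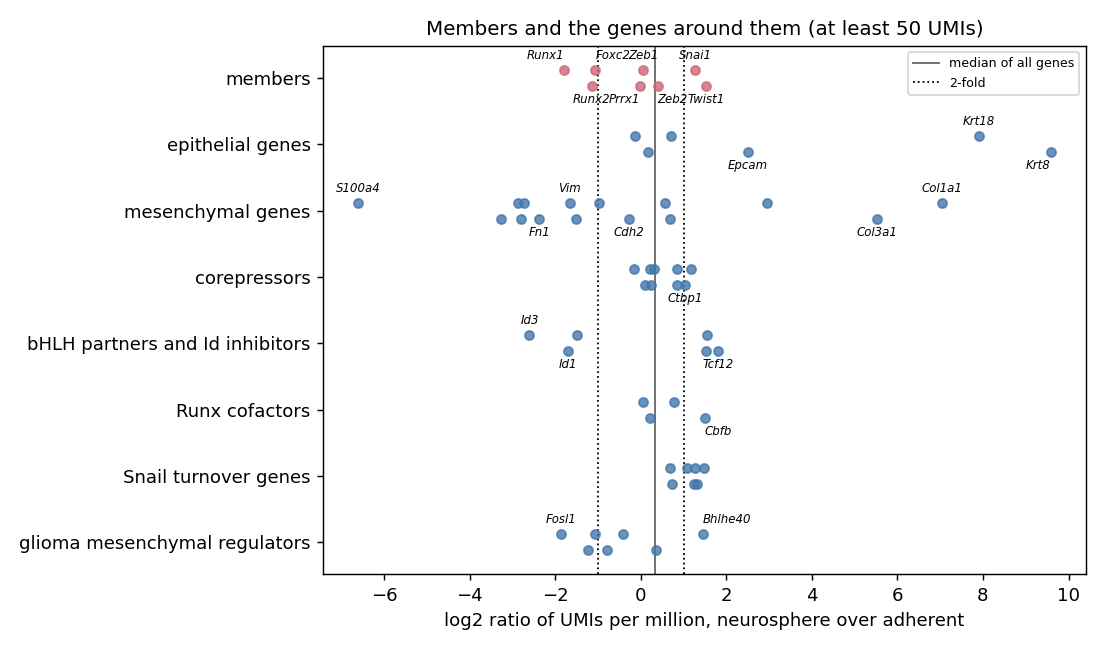
Log2 ratio of neurosphere to adherent CPM for the factors (red) and the genes of 7 lists (blue) with at least 50 UMIs over both libraries, with selected genes named; Cldn4, with 0 UMIs in adherent cells, is not drawn. The 3 E-protein genes lie right of the upper 2-fold line and the 3 Id genes left of the lower one, and the mesenchymal list spans -6.61 (S100a4) to 7.04 (Col1a1).

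Of 5 astrocyte markers, counted because the line is labelled an astrocytoma, Slc1a3 had 17148 and 5231 UMIs (log2 ratio -2.20), S100b 7437 and 16535 (0.66) and Aldh1l1 168 and 350 (0.57), Gfap had only 30 and 27 UMIs, and Aqp4 had 0 UMIs in both. Of 8 immune markers 2 had at least 50 UMIs. Ptprc had 1 UMI in adherent and 0 UMIs in neurosphere cells and Tyrobp had 0 UMIs in both, and the summed level of the 8 was 13.1 and 6.08 CPM, mostly Cd68 and Cx3cr1. Of 4 endothelial markers only Pecam1 had at least 50 UMIs, with 61 and 208 (log2 ratio 1.28), while Tek had 7 and 36 UMIs, Cdh5 had 0 UMIs in both cultures and Kdr had 0 and 2, and the sum was 1.47 and 3.79 CPM. Of 5 fibroblast and mural markers 3 had at least 50 UMIs, Pdgfrb had 32 and 4 UMIs (log2 ratio -3.49, -5.45 to -1.99), Pdgfra 306 and 316 (-0.44), Rgs5 1 and 9, and Lum 0 and 143, and the sum was 7.34 and 62.8 CPM, of which Dcn, the decorin gene, made up most, with 1 and 3606 UMIs. In a division added after the data were seen, Twist1 was at 59.7 CPM in the 694 thinned neurosphere cells with a Dcn UMI and at 55.7 CPM in the 3502 without. Without the cells that held Dcn, the Twist1 log2 ratio between the cultures was 1.52 (1.35 to 1.68) and that of Prrx1 was 0.08 (-0.04 to 0.19). Without those cells the log2 ratio was -1.76 for Runx1, -0.90 for Runx2 and 0.40 for Zeb2. At 5000 UMIs a cell without a Dcn UMI may still express Dcn.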

How the data were processed

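GL261 cells gave 1 adherent and 1 neurosphere library by 10x Genomics 3′ single-cell chemistry. What the authors deposited are unnormalized UMI counts for each gene in each called cell, from Cell Ranger 7.0.1 and the mm10 build per the submitters' processing notes. The setting for reads in introns is not given in the sources used here.

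The 13 mitochondrial and 101 ribosomal genes were removed, and cells under 1000 UMIs, or under 1250 (adherent) or 2250 (neurosphere) genes, were left out. No doublet caller was used, and leaving out cells over the 95th percentile of UMIs was an alternative. UMIs were summed per library and given as CPM. Intervals at 95% are exact (Poisson for CPM, conditional for log2 ratios, binomial for shares). A count of 0 was set to a limit of 3 counts per library for fold values, which leave out the counting error of the other library. A gene counted as measured at 50 UMIs over both libraries. Classes of cells needed at least 50 cells on each side and 20 UMIs of the factor over both sides. Interval coverage was tested only on simulated Poisson counts, the model behind the intervals. That test could not show how the intervals behave where UMIs are uneven between cells. The tools were edgeR 4.0.16 (for TMM only) and, under Python 3.11.15, pandas 2.3.3, statsmodels 0.14.6, scipy 1.17.1 and numpy 2.4.6, and thinning used seed 1.

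Named genes were the 10 factors in every comparison, Cdh1, Cdh2, Vim and Fn1, up to 2 genes with the largest and 2 with the smallest log2 ratio among the measured genes of each other list, and the marker genes that divide cells. Other names (Epcam, Cldn4, Tcf3, Id2, Gsk3b, Fbxl14, Btrc, Cebpb, Wwtr1, Tek, Kdr, Pdgfrb, Rgs5 and the other markers of immune, endothelial, fibroblast and mural cells, Ocln, Esrp1, Esrp2, Sp7, Bglap, Ihh, Runx3 and genes of counts up to 5) and the astrocyte list were added after their values were seen. The factors and lists were chosen with earlier results of these data known. Gene positions are from GENCODE on GRCm38, where 32158 of 32285 identifiers matched, and promoter sequences from RefSeq. Alternatives covered the cell filter, mitochondrial share, scaling, thinning, the mean of per-cell CPM, a gene length trend and the UMI minimum. Leaving out the shared barcodes, the divisions by Krt8 class, Dcn and Epcam, the shares of all genes beside the Krt8 counts, and the scalings of the lists were added after seeing the data. One further gene was left out of the mesenchymal list and its counts, and is not reported here.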

Additional observations from a re-analysis of the deposited data

How the results depend on the processing

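With 1 library per culture no replicate could be left out, and depth limited Snai1, Snai2, Twist2 and Foxc2, each under 100 UMIs over both libraries. No paired analysis was possible because each culture has 1 library. The count of factors over 2-fold higher in neurospheres was 2 of 8. It was 1 of 6 with cells thinned to 5000 UMIs, beside 22.6% of all genes, and 1 of 6 with a minimum of 200 UMIs, beside 20.3%. In both of these Snai1 and Foxc2 no longer counted as measured. The count over 2-fold lower, 3 of 8, was 1 of 8 when mitochondrial and ribosomal UMIs stayed in the total. It was 4 of 9 with every gene that had over 3 UMIs in a library, which adds Twist2, beside 15.6% of all genes. With thinned cells it was 2 of 6, beside 10.7%, and with the minimum of 200 UMIs 2 of 6, beside 9.47%. With the mean of per-cell CPM it was 2 of 8, beside 12%, and with the gene length trend removed 2 of 8, beside 11.3%. The median log2 ratio of the factors, 0.02, was 0.24 with those UMIs in the total, -0.19 with TMM scaling, 0.12 with thinned cells and -0.22 with the gene length trend removed. TMM scaling moved every log2 ratio by -0.22 and a total with mitochondrial and ribosomal UMIs by 0.22, so that 16.1% and 29.5% of all genes were over 2-fold higher and 14.5% and 9.38% lower, beside 21.7% and 11.7%. Over the 10 alternatives for single factors the log2 ratio ranged from 1.30 to 1.75 for Twist1, 1.02 to 1.49 for Snai1, 0.12 to 0.62 for Zeb2, -0.30 to 0.27 for Zeb1, -0.22 to 0.21 for Prrx1, -1.28 to -0.84 for Foxc2, -1.65 to -0.93 for Runx2 and -2.19 to -1.57 for Runx1.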
